A study of Mus musculus with 8 samples.

Results

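The 10 genes described here encode the IRE1 and ATF6 sensors of the unfolded protein response, the transcription factor made downstream of IRE1, and core parts of endoplasmic reticulum-associated degradation (ERAD). They were taken by symbol (Ern1, Xbp1, Atf6, Atf6b, Herpud1, Sel1l, Syvn1, Derl1, Derl2 and Derl3) from a table of read counts for 21859 Ensembl mouse gene IDs, and all 10 were found. RNA was sequenced from 8 samples of the mouse leukaemia line PER-M60, each taken here as 1 culture. In 4 cultures the cells were grown in control media, and in the other 4 in osteoclast-conditioned media, that is, media in which osteoclasts, the bone-resorbing cells, had been kept beforehand. All cultures are of this 1 line, and the labels name no genetic change or drug. They do not describe the base medium or the time of exposure. The question is which transcripts of these cells respond to the conditioned medium.

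The endoplasmic reticulum (ER) folds secreted and membrane proteins, and the unfolded protein response adjusts its capacity. IRE1, encoded by Ern1, is a kinase and RNase that splices Xbp1 mRNA so that it encodes an active transcription factor. ATF6 and its relative ATF6B are membrane-bound factors that are cut in the Golgi apparatus and then enter the nucleus. PERK, encoded by Eif2ak3, is the remaining sensor and acts through translation and ATF4. ERAD removes proteins that fail to fold: the ubiquitin ligase HRD1 (Syvn1) and its partner SEL1L form a channel complex with derlins and the scaffold HERP (Herpud1), and the ATPase p97 (Vcp) pulls substrates into the cytosol. In the B lineage this system is best known from plasma cells, which need XBP1 for antibody secretion. Gene-level counts do not separate spliced from unspliced Xbp1 mRNA, nor do they show cleavage of ATF6.

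Library totals ran from 15391754 to 21637966 counts, with 4 libraries per medium, and a floor of 3 counts corresponded to at most 0.195 CPM, the unit that scales every library to the same total. The labels name a cell type only as leukaemia cells. Of 13 B-cell precursor markers, 11 had a mean of at least 1 CPM in either medium, with summed levels of 4560 to 4640 CPM in control and 4830 to 4900 CPM in conditioned cultures; Rag1 and Rag2 were at 0 and lie inside another gene of the table. The 8 macrophage and myeloid markers summed to 6.38 to 7.38 CPM in control and 7.52 to 9.34 CPM in conditioned cultures, the 7 T cell markers to at most 3.32 CPM, and the 8 stromal markers to at most 12.8 CPM. The 10 osteoclast markers summed to 35.8 to 37.2 CPM in control and 34.4 to 37.9 CPM in conditioned cultures, and Dcstamp and Ocstamp were at 0. Of these 10, only Acp5 (22.9 CPM in control, 24.4 in conditioned cultures) and Itgb3 (12.9 and 10.7) had a mean of at least 1 CPM. Among the stromal markers only Runx2 did (11.3 and 10.8 CPM). Chi-square per degree of freedom between libraries was 1.383 to 5.262 within a medium and 7.843 to 13.08 between media. The highest values within a medium were those of control replicate 2 with the other controls (3.369, 4.251 and 5.262). Such values cannot tell separate cultures from separate preparations of 1 culture. Each library was treated as a separate culture, following the replicate numbers in the titles.

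With osteoclast-conditioned medium 5 of the 10 genes were higher and 3 lower (edgeR quasi-likelihood test, Benjamini-Hochberg adjusted p under 0.05 over 10729 tested genes), and all 10 passed the filter on low counts. Of all tested genes the same test called 30.5%, with 15.7% higher and 14.8% lower. Herpud1 (log2 fold change 0.34) and Atf6 (0.30) rose most, Derl1, Sel1l and Syvn1 rose by less, and Derl3 (-0.93), Derl2 (-0.14) and Atf6b (-0.11) fell. The Derl2 and Atf6b calls were both lost with DESeq2 and without control replicate 1 or conditioned replicate 1 or 2, which left 1 gene called lower. The transcripts of Ern1 and Xbp1 did not pass the test. The control and conditioned cultures did not overlap in 7 of the 10 genes, against 28.2% of all tested genes. The median log2 fold change was 0.10 over the 10 genes and -0.01 over all tested genes. Against a change of 1.2-fold, only Herpud1 (edgeR adjusted p = 0.0322) and Derl3 (0.0272) among the 10 passed. Because these are bulk cultures, a lower share of cells that express a gene and less RNA per cell cannot be told apart.

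**Figure D1:**
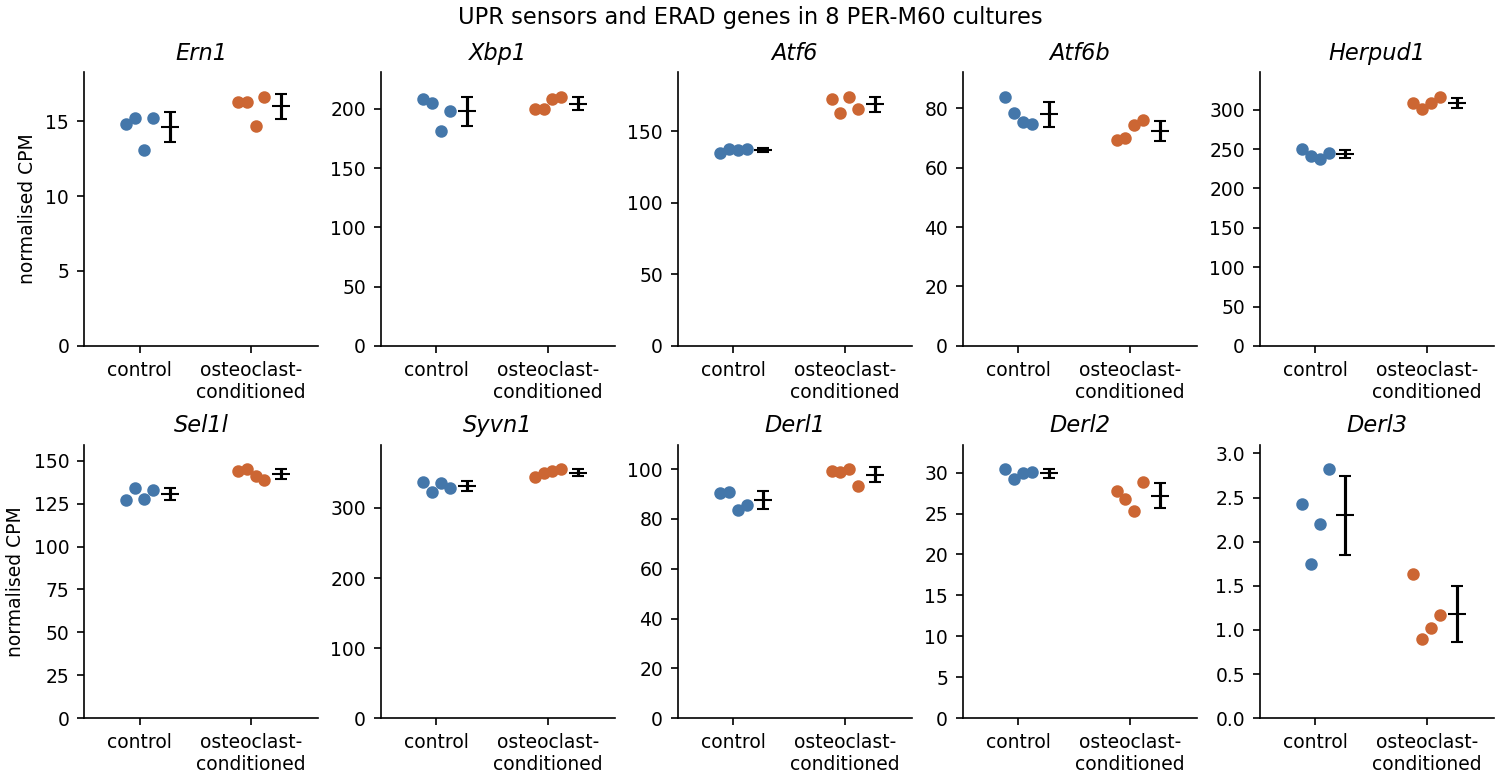
Normalised CPM of each gene (vertical axes, from 0, one scale per panel) in the 4 control and 4 osteoclast-conditioned cultures; each point is 1 culture, and the black mark and bar are the mean and SD. The media are separated in Atf6, Herpud1, Sel1l, Syvn1, Derl1, Derl2 and Derl3, and overlap in Ern1, Xbp1 and Atf6b.

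**Figure D2:**
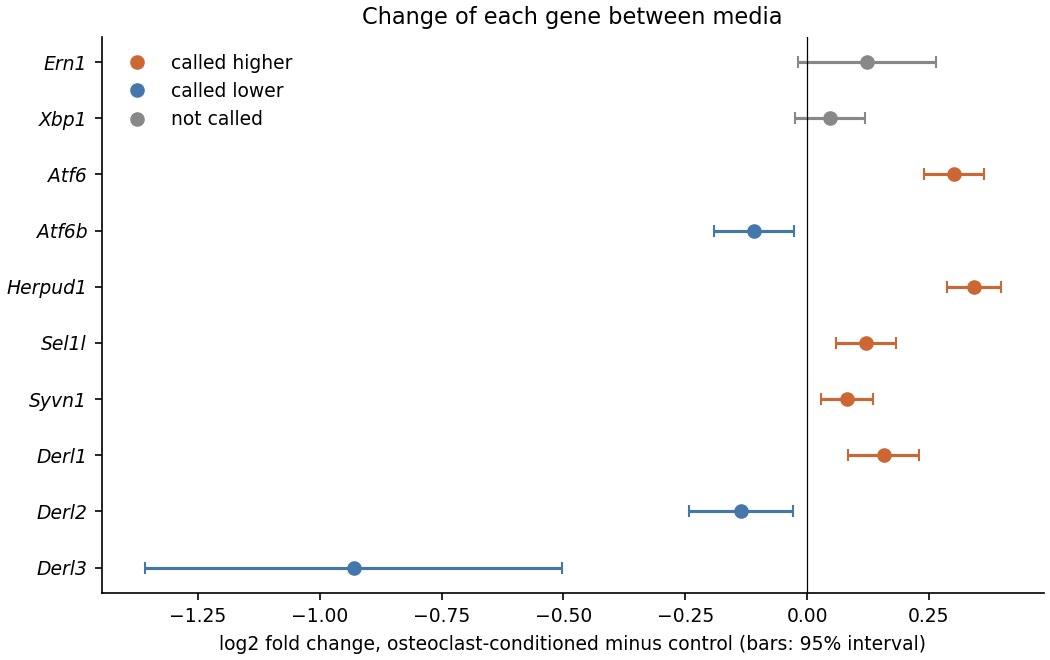
Log2 fold change of each gene (horizontal axis, osteoclast-conditioned minus control) with its 95% interval, coloured by the edgeR call. Herpud1 and Atf6 lie near 0.3, Derl3 lies at -0.93 with the widest interval, and the intervals of Ern1 and Xbp1 include 0.

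Levels differed widely between the genes once divided by the length of their exons. In control medium the order was Herpud1 (104 ± 2.18 CPM per kb, SD, n = 4), Syvn1 (68.2 ± 1.35), Xbp1 (60.9 ± 3.74), Atf6b (28.3 ± 1.51), Derl1 (26.3 ± 1.09), Sel1l (15.2 ± 0.37), Atf6 (14.9 ± 0.169), Derl2 (3.72 ± 0.0605), Ern1 (1.78 ± 0.12) and Derl3 (1.15 ± 0.224). Herpud1 stood above 96.7% of tested genes on this scale, and Derl3 above 15%. Neighbours in this order were separated in all 4 control cultures except Atf6b from Derl1 and Sel1l from Atf6, whose values overlapped. In conditioned medium Atf6b and Derl1 exchanged places, as did Sel1l and Atf6, and the other ranks were the same. The length used is that of all annotated exons of a gene merged, which can exceed that of the transcript expressed. Without the division, Atf6 (137 CPM in control medium, 9231 bp) stood above Atf6b (77.9 CPM, 2757 bp), so their order depends on it. The labels name a SureSelect HS2 library kit but not whether capture probes were used, and unequal capture would alter levels between genes.

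**Figure D3:**
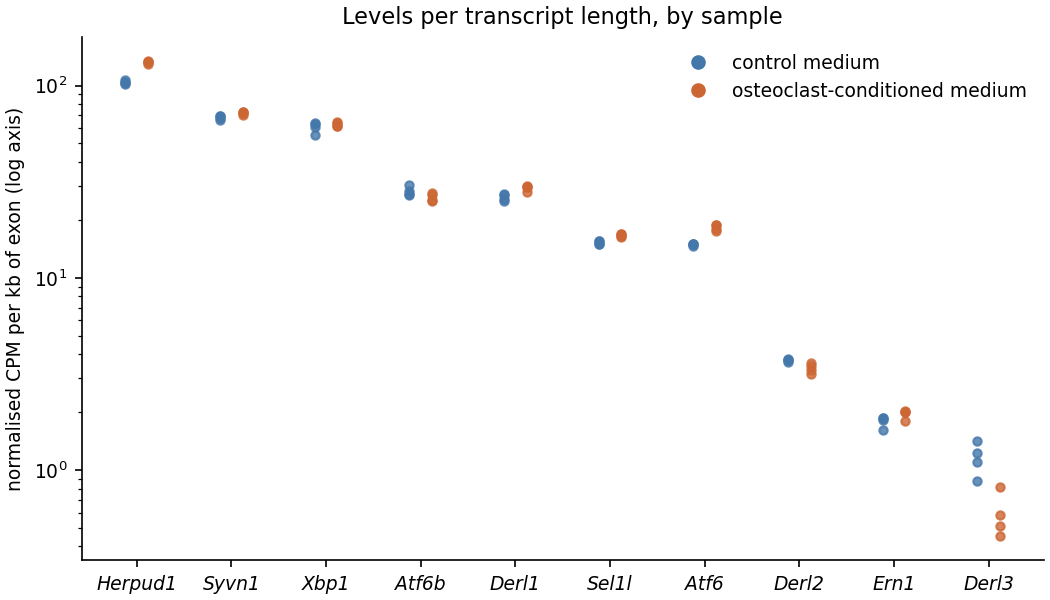
Normalised CPM per kb of exon (vertical log axis) for each gene in each culture, ordered by the control mean. Each point is 1 culture; the genes span from Herpud1 at 104 to Derl3 at 1.15 CPM per kb in control medium, and the 2 media share nearly the same order.

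Among the sensors, the ATF6 transcript changed and the IRE1 transcript did not pass the test. Atf6 (ENSMUSG00000026663, chromosome 1, 170704674 to 170867771 in GRCm38) had 135, 138, 137 and 138 normalised CPM in control replicates 1 to 4, and 173, 163, 174 and 166 in conditioned replicates 1 to 4. Every conditioned culture was above every control culture, and the log2 fold change was 0.30 (SE 0.03, edgeR adjusted p = 3.88e-09). Atf6b (ENSMUSG00000015461, chromosome 17, 34647146 to 34655074), whose product is a weaker activator than ATF6, had 83.7, 78.3, 75.2 and 74.6 CPM in control and 69.2, 69.9, 74.2 and 75.9 CPM in conditioned cultures. Its groups overlapped, because conditioned replicate 4 exceeded control replicates 3 and 4. The log2 fold change of Atf6b was -0.11 (SE 0.04, edgeR adjusted p = 0.0396). Its call was lost without control replicate 1 (log2 fold change -0.071, adjusted p = 0.216), conditioned replicate 1 (0.168) or conditioned replicate 2 (0.136), and with DESeq2 (0.0801) or thinned counts (0.0884). The ratio of Atf6 to Atf6b per kb was 0.482 to 0.554 in control and 0.655 to 0.748 in conditioned cultures. Both genes of a library share its scaling, so the ratio does not depend on the scaling between libraries.

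Ern1 (ENSMUSG00000020715, chromosome 11, 106394650 to 106487852) had a lower level per kb than Xbp1, Atf6 and Atf6b in both media. It had 14.8, 15.2, 13.1 and 15.2 CPM in control and 16.3, 16.3, 14.7 and 16.6 CPM in conditioned cultures. Conditioned replicate 3 lay among the control values, and the log2 fold change was 0.12 (95% interval -0.02 to 0.27, edgeR adjusted p = 0.187). Xbp1 (ENSMUSG00000020484, chromosome 11, 5520659 to 5525893), the substrate of IRE1, had 208, 205, 181 and 198 CPM in control and 200, 200, 208 and 210 CPM in conditioned cultures. Its groups overlapped, with control replicate 3 the lowest of the 8, and its log2 fold change was 0.05 (95% interval -0.03 to 0.12, edgeR adjusted p = 0.332). Without control replicate 3 it was 0.009, and without control replicate 1 it was 0.074; neither passed the test. Its splicing was not measured. Eif2ak3, the transcript of PERK, had 48.7 to 52.5 CPM in control and 47.5 to 52.9 CPM in conditioned cultures, with a log2 fold change of -0.02 (95% interval -0.10 to 0.07, edgeR adjusted p = 0.804).

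Of 17 listed genes that process, bind or resemble IRE1 and ATF6, 14 were tested, 3 were higher and 1 lower; of all tested genes 15.7% were higher and 14.8% lower. Mbtps1, the site-1 protease that makes the first cut in ATF6, rose from 173 ± 3.17 to 187 ± 1.33 CPM (log2 fold change 0.11, edgeR adjusted p = 0.00327), while Mbtps2, the site-2 protease, had 29.1 ± 1.29 and 29.5 ± 0.878 CPM. Dnajb9, an ER co-chaperone that binds IRE1 and is a known XBP1 target, rose from 12.9 ± 0.827 to 15.2 ± 0.538 CPM (0.23, adjusted p = 0.0125). Map3k5, the kinase ASK1 that acts below IRE1, rose by 0.15 (adjusted p = 0.0296), and Creb3l2, a membrane-bound factor related to ATF6, fell by 0.39 (0.0195). The Map3k5 call was lost without control replicate 1 or 4 or conditioned replicate 1, 3 or 4 (adjusted p from 0.0574 to 0.105), and that of Creb3l2 without control replicate 1, 2 or 4 or conditioned replicate 2 or 3 (0.0527 to 0.0796); DESeq2 gave 0.0768 and scaling by total counts 0.0626 for Map3k5, and thinned counts 0.0524 for Creb3l2. Rtcb, the ligase that joins the Xbp1 exons after the cut by IRE1, had 109 ± 2.84 and 116 ± 4.73 CPM (adjusted p = 0.0729). Among 8 listed transcripts that IRE1 is known to degrade, 3 were tested: Hgsnat (log2 fold change 0.21) and Galnt10 (0.13) were called higher (15.7% of all tested genes were), and Bloc1s1 had 2.35 ± 0.398 and 2.00 ± 0.251 CPM with an adjusted p of 0.372. The Hgsnat call was lost without control replicate 3 or 4 or conditioned replicate 1 or 2 (adjusted p from 0.0628 to 0.128), with DESeq2 (0.0659) and with thinned counts (0.0646).

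All 6 ERAD components passed the test, 4 higher and 2 lower, where 30.5% of all tested genes passed, 15.7% higher and 14.8% lower. Promoter sequences are given for the member that rose most, the member that fell most and the ligase of the complex, because only these 3 of the 8 genes with a RefSeq window (GRCm38.p6) held a long ER stress motif. Windows ran from 250 bases before to 50 after the start and were searched on both strands. The motifs were the ER stress response element ERSE (a CCAAT box, then 9 bases of any kind, then CCACG), ERSE-II (ATTGG, then 1 base of any kind, then CCACG), the core of the XBP1 site UPRE (TGACGTGG), the C/EBP-ATF element bound by ATF4 (TGATGNAA), the cyclic AMP response element CRE (TGACGTCA), and the CCAAT box and the ERSE half-site CCACG on their own. The box and the half-site are parts of ERSE and, with the box on the other strand, of ERSE-II; the opposite strand of the UPRE core begins with the half-site. The 250 bases before the start follow, 5′ to 3′ on the strand of the gene, with the fixed bases of ERSE, ERSE-II and C/EBP-ATF matches in capitals.
Herpud1 (chr8:94386179-94386428, plus strand): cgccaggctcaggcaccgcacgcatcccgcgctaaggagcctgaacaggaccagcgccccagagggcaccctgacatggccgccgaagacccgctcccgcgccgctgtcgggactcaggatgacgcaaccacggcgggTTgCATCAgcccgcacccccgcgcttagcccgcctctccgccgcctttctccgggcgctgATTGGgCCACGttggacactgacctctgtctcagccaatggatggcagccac
Derl3 (chr10:75893148-75893397, plus strand): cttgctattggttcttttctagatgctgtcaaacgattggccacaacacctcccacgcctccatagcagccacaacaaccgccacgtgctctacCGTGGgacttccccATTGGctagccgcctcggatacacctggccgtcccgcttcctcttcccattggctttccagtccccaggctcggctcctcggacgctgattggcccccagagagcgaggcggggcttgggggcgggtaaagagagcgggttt
Syvn1 (chr19:6046326-6046575, plus strand): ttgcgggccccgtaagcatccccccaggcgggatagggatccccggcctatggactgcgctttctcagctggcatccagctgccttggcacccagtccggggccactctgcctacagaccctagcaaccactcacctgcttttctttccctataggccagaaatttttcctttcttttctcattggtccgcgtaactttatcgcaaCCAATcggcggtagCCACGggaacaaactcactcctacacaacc
Counted from the RefSeq start, Herpud1 held an ERSE-II from -52 to -42 and a C/EBP-ATF element from -112 to -105 on the opposite strand. Derl3 held an ERSE on the opposite strand from -156 to -138, and Syvn1 held an ERSE from -44 to -26. Of 32851 promoter windows of this length, 0.119% held ERSE, 0.0365% ERSE-II, 0.676% the UPRE core, 3.97% the C/EBP-ATF element, 1.79% CRE, 37.4% the CCAAT box and 32.8% the ERSE half-site. The windows of Xbp1, Ern1, Atf6b, Sel1l and Derl2 held none of the 5 longer motifs; Atf6 and Derl1 had no window in the table. The 3 genes with ERSE or ERSE-II did not move alike: Herpud1 and Syvn1 were higher and Derl3 lower in conditioned medium.

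**Figure D4:**
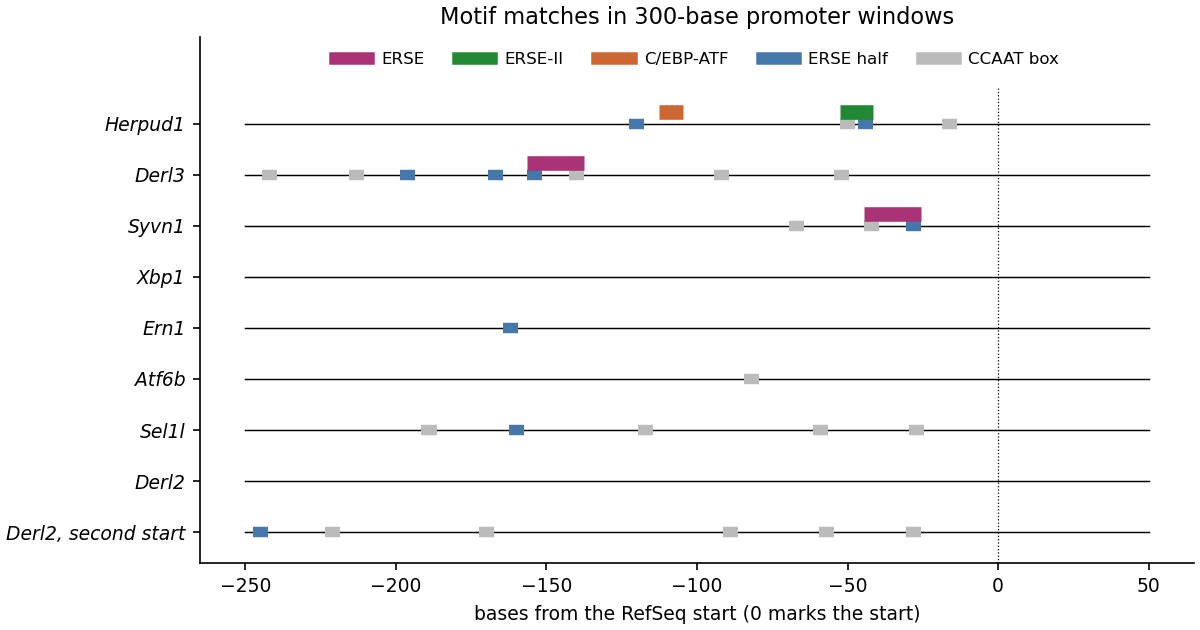
Motif matches in the RefSeq promoter windows of 8 genes (horizontal axis: bases from the start, from 250 before to 50 after; Derl2 has a second start). Long motifs are drawn above the line and the CCAAT box and ERSE half-site on it; ERSE-II and C/EBP-ATF are seen in Herpud1, and ERSE in Derl3 and Syvn1.

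Herpud1 (ENSMUSG00000031770, chromosome 8, 94386438 to 94395377), the scaffold that links HRD1 to derlins, rose most of the 10 genes. It had 250, 241, 238 and 245 CPM in control and 308, 301, 309 and 316 CPM in conditioned cultures. The lowest conditioned culture was above the highest control culture, and the log2 fold change was 0.34 (SE 0.03, edgeR adjusted p = 3.62e-11). Over all alternatives the log2 fold change lay between 0.32 and 0.36. An antisense RNA gene, Gm15890, covers 12.9% of the Herpud1 exon bases from the opposite strand, and the use of strand in counting is not given in the sources used here. The relative Herpud2 also rose, from 47.0 ± 0.822 to 55.5 ± 3.48 CPM (0.24, edgeR adjusted p = 8.98e-05). Among 9023 other genes with at least 5 CPM, the profiles nearest to that of Herpud1 over the 8 cultures were those of Mia2, which acts at ER exit sites (root-mean-square difference of centred log2 CPM 0.021), N4bp2l1 (0.025) and the plasma membrane calcium pump Atp2b2 (0.027). Mia2 went from 173.3 ± 4.23 to 222.3 ± 6.5 CPM.

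Syvn1 (ENSMUSG00000024807, chromosome 19, 6046576 to 6053712), the HRD1 ligase, had 337, 323, 336 and 329 CPM in control and 344, 350, 353 and 355 CPM in conditioned cultures. The groups were adjacent but did not overlap, and the log2 fold change was 0.08 (SE 0.03, edgeR adjusted p = 0.0166). The call was lost when libraries were scaled by total counts only (0.06, adjusted p = 0.0697) and without conditioned replicate 3 (0.0582). Sel1l (ENSMUSG00000020964, chromosome 12, 91806043 to 91849157), the adaptor that stabilises HRD1, had 127, 134, 128 and 133 CPM in control and 144, 145, 141 and 139 CPM in conditioned cultures. Its groups did not overlap, and its log2 fold change was 0.12 (SE 0.03, adjusted p = 0.00239). The ratio of Syvn1 to Sel1l per kb was 4.26 to 4.67 in control and 4.21 to 4.50 in conditioned cultures, so the groups overlapped in this ratio. Of Syvn1 exon bases 1.87% lie opposite Mrpl49.

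The derlins, membrane proteins of the same family that thin the ER membrane for the passage of substrates, did not move together. Derl1 (ENSMUSG00000022365, chromosome 15, 57869502 to 57892448) had 90.3, 90.9, 83.4 and 85.6 CPM in control and 99.2, 98.7, 99.9 and 93.4 CPM in conditioned cultures, without overlap (log2 fold change 0.16, SE 0.04, edgeR adjusted p = 0.000987). Derl2 (ENSMUSG00000018442, chromosome 11, 71007164 to 71019841) had 30.4, 29.2, 29.9 and 30.1 CPM in control and 27.8, 26.8, 25.3 and 28.9 CPM in conditioned cultures. The Derl2 groups were separated by a narrow gap between control replicate 2 and conditioned replicate 4, and the log2 fold change was -0.14 (SE 0.05, edgeR adjusted p = 0.0491). This call was lost without control replicate 1, 3 or 4 or conditioned replicate 1, 2 or 3 (adjusted p from 0.0694 to 0.194), and with DESeq2 (0.120) or no filter on low counts (0.0699). Of Derl2 exon bases 2.87% lie opposite Mis12.

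Derl3 (ENSMUSG00000009092, chromosome 10, 75893413 to 75895941), the derlin best known from secretory tissues, rested on 41, 38, 34 and 50 counts in control and 32, 15, 19 and 20 counts in conditioned replicates 1 to 4. These correspond to 2.43, 1.75, 2.20 and 2.82 CPM in control and 1.63, 0.898, 1.02 and 1.17 CPM in conditioned cultures. Every conditioned culture was below every control culture, with control replicate 2 and conditioned replicate 1 nearest to each other. The log2 fold change was -0.93 (95% interval -1.36 to -0.50, edgeR adjusted p = 0.000983), or 0.525 times the control level. It ranged from -1.14 to -0.81 over the alternatives. Profiles nearest to Derl3 were farther away than those nearest to Herpud1: Gm32742 (0.235), Ankle1, a nuclease (0.237), and Haghl (0.254). Counting error adds to such distances, and Derl3 had 15 to 50 counts a library against 3670 to 6056 for Herpud1. Only genes with at least 5 CPM, above the level of Derl3, were compared. The part of counting error in the larger distances was not tested. Per kb, Derl3 made up 3.79, 2.76, 3.69 and 4.58% of the summed derlin level in control and 2.40, 1.35, 1.52 and 1.82% in conditioned cultures. The mean share fell by 1.94 percentage points per kb, and without division by length it fell by 0.991 points. Derl1 made up 84.4% ± 1.08 and 88.1% ± 0.992, and the summed derlin level was 31.2 ± 1.01 and 33.4 ± 0.794 CPM per kb (SD, n = 4 each).

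Markers of plasma cells were listed beside Derl3 and Xbp1. Of 9, 6 were tested, 1 was higher and 2 lower, beside 15.7% and 14.8% of all tested genes, with summed levels of 217 to 235 CPM in control and 232 to 243 CPM in conditioned cultures. The plasma cell surface proteoglycan Sdc1 went from 24.9 ± 0.915 to 19.0 ± 0.40 CPM (edgeR adjusted p = 2.94e-06), and Irf4 from 102 ± 1.97 to 119 ± 4.16 CPM (3.71e-06). Fkbp11, the other marker called lower, went from 4.04 ± 0.94 to 3.03 ± 0.377 CPM (edgeR adjusted p = 0.0393). Mzb1 had 0 counts in all cultures and overlaps another gene of the table. Prdm1, which drives the plasma cell programme, had at most 0.560 ± 0.305 CPM, and Tnfrsf17 at most 0.0714 ± 0.0322 CPM. Among B-cell precursor markers 6 of 11 tested were higher and 1 lower, against the same shares of all tested genes, for example Pax5 with 1210 ± 47.7 and 1320 ± 3.95 CPM. The part of these marker differences in the changes of the 10 genes was not tested.

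Among other ERAD genes more were higher than lower. Of 45 listed, 42 were tested, 13 were higher and 4 lower, with a median log2 fold change of 0.04; the shares over all tested genes were 15.7% and 14.8%. The count of lower genes dropped to 1 with DESeq2 and without control replicate 2 or 4 or conditioned replicate 2. Rhbdd1, an ER rhomboid protease that cuts ERAD substrates, rose most, from 27 ± 1.79 to 40.0 ± 1.78 CPM (0.57, edgeR adjusted p = 1.02e-09). Edem1, a lectin-like factor that selects glycoproteins and is a known XBP1 target, rose from 143 ± 6.74 to 176 ± 4.66 CPM (0.30, 2.28e-08). Dnajb14, a membrane co-chaperone of ERAD, rose from 12.6 ± 1.36 to 15.4 ± 0.532 CPM (0.29, 0.00402). Among the genes that fell, Vcp, the p97 ATPase, went from 239 ± 11.8 to 210 ± 7.58 CPM (-0.18, 0.000111). Jkamp, which links the ER membrane to proteasomes, fell by 0.24 (adjusted p = 0.0299), and the selenoprotein gene Selenok fell by 0.14 (0.0228). The Jkamp call was lost without control replicate 2, 3 or 4 or conditioned replicate 2 or 4 (adjusted p from 0.0698 to 0.0846), and the Selenok call without control replicate 2 or 4 or conditioned replicate 1 or 2 (0.0577 to 0.0931). With DESeq2 the adjusted p was 0.0816 for Jkamp and 0.0588 for Selenok, which had 0.0507 with thinned counts. The cofactors of p97, Ufd1 (35.5 ± 1.92 and 33.0 ± 2.02 CPM) and Nploc4 (147 ± 3.04 and 146 ± 2.82 CPM), did not pass the test. Erlec1 and Yod1 had 0 counts in all cultures and lie inside other genes of the table (Asb3 and Pfkfb2), so their counts give no measure of a difference.

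Folding and secretory genes known as ATF6 and XBP1 targets were mostly lower where they passed. Of 30 tested, 17 were lower and 2 higher (Dnajb9, above, and the signal peptidase subunit Spcs2, 0.13), where 14.8% of all tested genes were lower and 15.7% higher. The list had a median log2 fold change of -0.15 against -0.01 over all tested genes. Hspa5, which encodes the chaperone BiP that holds the sensors inactive, had 778 ± 11.3 and 545 ± 14.1 CPM (-0.51, edgeR adjusted p = 1.87e-15). Sdf2l1, a partner of BiP, fell by 0.53 (adjusted p = 3.28e-12), and Creld2 by 0.43 (6.90e-08). The ratio of Herpud1 to Hspa5 per kb was 0.551 to 0.585 in control and 0.994 to 1.09 in conditioned cultures, so the 2 transcripts were near parity per length in conditioned medium. Of the 14 listed genes of the PERK arm and ATF4 targets, 12 were higher and 0 lower, beside 15.7% and 14.8% of all tested genes, with a median of 0.89. Trib3 (log2 fold change 1.58), Nupr1 (1.2) and Atf5 (1.02) rose most among those with at least 5 CPM, and Atf4 itself went from 370 ± 15.6 to 432 ± 7.68 CPM. Differences between these lists were not tested.

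**Figure D5:**
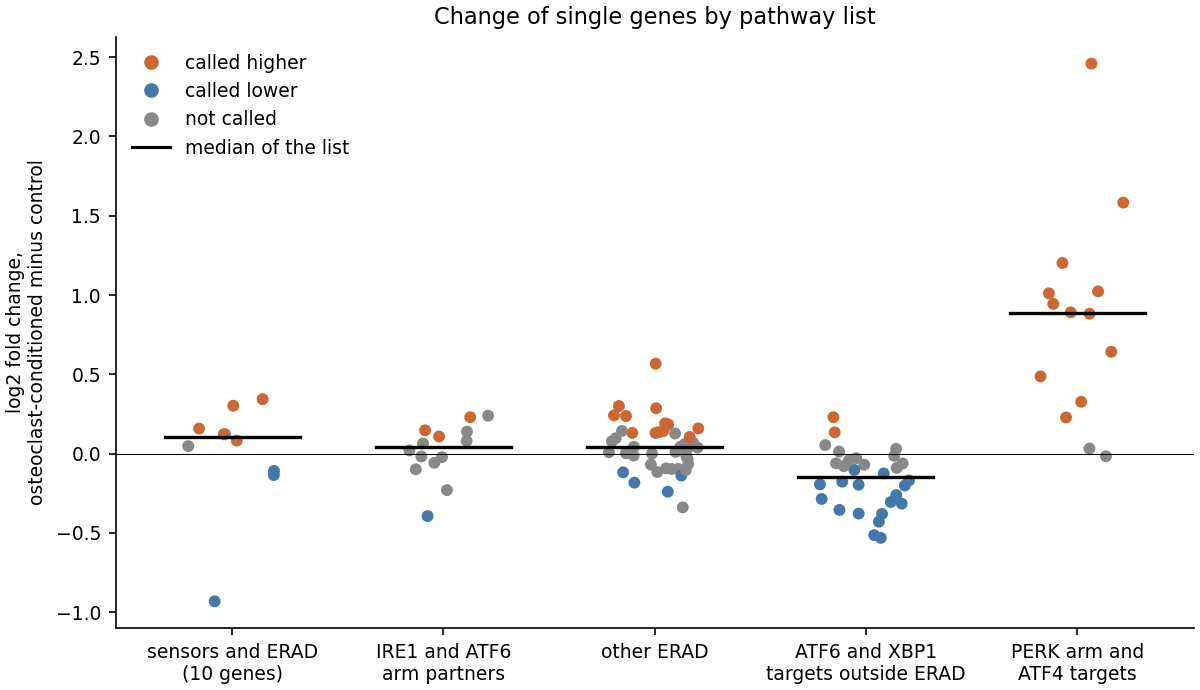
Log2 fold change (vertical axis, osteoclast-conditioned minus control) of each tested gene in the 10 sensor and ERAD genes and in 4 pathway lists; each point is 1 gene, coloured by its edgeR call, and black lines are medians. The medians are 0.10 for the 10 genes, 0.04 for the arm partners and for other ERAD genes, -0.15 for ATF6 and XBP1 targets outside ERAD and 0.89 for the PERK arm and ATF4 targets.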

How the data were processed

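The table the authors deposited holds unnormalized read counts by Ensembl ID for 8 RNA libraries. Per the submitters' processing notes the tools were STAR 2.7.5a and featureCounts 2.0.1 with mm10; annotation, strand and barcode handling are not given in the sources used here. Symbols, positions and exon lengths came from GENCODE M21 (GRCm38), which matched 21817 of the 21859 IDs; all 179 list entries matched, 1 by a synonym, and Ddit3, a symbol with 2 IDs, is its longest model. Sequences came from RefSeq (GRCm38.p6).

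Genes passing filterByExpr (10729) were scaled by TMM and tested with edgeR 4.0.16 (robust glmQLFit and glmQLFTest, medium as the term, R 4.3.3), with Benjamini-Hochberg adjustment at 0.05. Standard errors came from the size of the log2 fold change over the root of F, and intervals from the test's degrees of freedom. CPM are TMM-scaled; levels between genes are per kb of merged exons. The fit was tested on simulated counts. Groups and replicate numbers came from sample titles. The p-values measure the spread between libraries of 1 line, each treated as a separate culture. Floors cover counting error only. Alternatives were other scalings, filters, tests (DESeq2 1.42.0, limma-voom 3.58.1), thinning, thresholds, the replicate block and leaving out each library.

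The members and gene lists were chosen with earlier results of these data known. Named were all 10 members, Eif2ak3 and Hspa5, up to 3 called genes per direction and list with at least 5 CPM, and the 3 genes nearest to the member that rose most and the one that fell most. Other genes in the text, among them Mbtps2, Rtcb, Bloc1s1, Herpud2, Ufd1, Nploc4, Atf4 and the markers, were chosen after their values were seen.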

Additional observations from a re-analysis of the deposited data

Results flagged for a closer look

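In each medium, the highest or lowest of the 4 cultures was set against the other 3 for every gene named by rule and for the Derl3 share. Of 74 such groups, 5 had a gap, divided by the range, above Dixon's 95% critical value, where chance gives a gap of this size in about 1 in 20 groups, or 3.7 here. Ern1 was lowest in osteoclast-conditioned replicate 3, at 14.7 CPM against 16.3 to 16.6 in the others. Map3k5 was lowest in conditioned replicate 2, at 30.0 CPM against 33.5 to 34.3. In control replicate 1, Jkamp was lowest at 9.83 CPM against 12.3 to 12.6, and Galnt10 highest at 83.7 against 79.5 to 80.2. Sdf2l1 was lowest in control replicate 4, at 103 CPM against 111 to 112.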

How the results depend on the processing

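Herpud1 and Derl3 kept direction and call in every alternative that gave a value, and no member changed sign; Derl3 had no value where a mean of 50 counts was required. Against a 1.2-fold change, 227 genes were called over all genes, 1 member higher and 1 lower, 0 and 0 arm partners, 1 and 0 other ERAD genes, 0 and 6 ATF6 and XBP1 targets, and 0 RIDD substrates (transcripts that IRE1 degrades) higher. At an adjusted p under 0.01 the counts were 2147 genes, 1 member lower, 1 arm partner higher and 0 lower, 1 other ERAD gene lower, 1 ATF6 and XBP1 target higher and 1 RIDD substrate higher. DESeq2 called 1 member lower, 1 other ERAD gene lower and 1 RIDD substrate higher. Thinned counts gave 0 arm partners lower and 1 RIDD substrate higher. Scaling by total counts called 2 arm partners lower, and 40.7% of all calls were then higher, against 51.6%. Without the division by length, the Derl3 share fell by 0.991 percentage points, and with it the share fell by 1.94 points.

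Leaving out 1 library at a time gave 2635 to 3578 called genes, 4 to 5 members higher and 1 to 3 lower (1 without control replicate 1 or conditioned replicate 1 or 2), 2 to 5 arm partners higher (5 without control replicate 2) and 0 to 1 lower, 10 to 15 other ERAD genes higher and 1 to 4 lower (1 without control replicate 2 or 4 or conditioned replicate 2), and 1 to 2 RIDD substrates higher. The log2 fold change of Eif2ak3, which was not called, ranged from -0.043 to 0.009 and was above 0 without control replicate 4 (0.005) or conditioned replicate 2 (0.009).

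With the replicate number as a block, 3446 genes were called, 5 members higher and 3 lower, and no count of a list moved by over 1.5 times. Deviations of same-numbered libraries had correlations from -0.051 to 0.143, and 3 of 8 libraries matched their own number best, so the numbers were not taken as pairing. Low counts limit Derl3 most, at 15 to 50 counts a library.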

Other observations

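Within a medium, the position of the libraries was not the same for all 10 genes. Control replicate 3 was the lowest control culture in 4 of them (Xbp1, Ern1, Derl1 and Herpud1) and the highest in 0. Conditioned replicate 4 was the highest conditioned culture in 6 (Xbp1, Ern1, Atf6b, Derl2, Herpud1 and Syvn1) and the lowest in Derl1 and Sel1l.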
